A study of Mus musculus with 4 samples.

Results

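The genes described here build ribosomes. The set holds 42 genes of the nucleolus, the nuclear body in which ribosomal RNA is made and ribosomal subunits are assembled, and is defined by gene symbol. They comprise subunits and factors of RNA polymerase I (Pol I), abundant nucleolar proteins, core proteins of the small nucleolar ribonucleoproteins (snoRNPs) and assembly factors of the small and the large subunit. A gene counted as measured where the array had at least 1 probe (a probe set, which gives 1 value per array) annotated with its symbol alone. That was the case for 41 of the 42, with 55 probes among the 41345 of the array, and these 41 are part of the 22180 genes tested. Fbl, the gene of the methyltransferase fibrillarin, is annotated on a probe shared with Tulp4 and is given no value.

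The cells were 4T1, a mouse mammary carcinoma line grown in culture. One group expressed a short hairpin RNA (shLDHA) that targets Ldha, which encodes a lactate dehydrogenase subunit and so serves the conversion of pyruvate to lactate, and the other a hairpin of scrambled sequence (scramble). Ldha knockdown cells were selected in 10 µg/ml puromycin and pooled, so they were not 1 clone. Whether scramble cells were selected is not stated, and selection and knockdown cannot be told apart. Cells of both groups were kept in complete culture medium for 24 hours before extraction, and labelling of 400 ng total RNA per sample preceded hybridisation to an Affymetrix whole-transcript array, with 2 arrays for shLDHA and 2 for scramble. No label says that the 2 arrays of a group came from separate cultures, so p-values here reflect the scatter among 4 arrays alone, and that scatter may be technical. In bulk RNA, fewer cells of a kind and less RNA per cell cannot be told apart.

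Ribosome production starts when Pol I, helped by the factors UBF and SL1, transcribes ribosomal DNA into a long precursor. Guide snoRNAs carried by box C/D and box H/ACA proteins mark sites for methylation and pseudouridylation, and the small subunit processome and the large subunit particles fold and cut the precursor. The pathway is costly, is driven by MYC and growth signals, and is commonly high in tumour cells.

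The targeted transcript was measured first. Ldha read 6.31 and 6.15 on the shLDHA arrays, against 6.69 and 6.96 on the scramble arrays, on the log2 scale. The log2 change was -0.59 (SE 0.12, limma adjusted p = 0.039), a modest reduction on the probe used (17478225). Probes annotated with several symbols were left out, so any that also measure Ldha were not read. Ldha passed in 9 of 13 alternative settings of the fit. Among those that ended the call were the fits in which scramble replicate 2 (adjusted p = 0.128), shLDHA replicate 1 (0.0965) or shLDHA replicate 2 (0.163) was left out. Arrays of 1 group correlated at r = 0.997 across genes and arrays of different groups at r = 0.993, where genes are not independent replicates. All 8 epithelial markers (Epcam, Cdh1, Krt7, Krt8, Krt14, Krt18, Krt19 and Cldn3) averaged, over the 4 arrays, above 4.19, the 95th percentile of 1105 olfactory receptor genes, which these cells are not known to use. Of the markers of other cell types, 1 of 7 leukocyte, 1 of 8 fibroblast and 0 of 6 endothelial genes averaged above that level. By limma 3 of the 8 epithelial markers were higher and 1 lower in shLDHA. The summed linear signal of the leukocyte list was 137 and 149 in shLDHA, against 222 and 229 in scramble. Cd68 was the 1 leukocyte marker above the 4.19 level and the 1 that changed (log2 change -0.91, limma adjusted p = 0.00516), while the pan-leukocyte gene Ptprc read 2.76 and 2.58 in shLDHA and 2.80 and 2.64 in scramble. The fibroblast sum was 149 and 165 in shLDHA, against 160 and 163 in scramble, and the endothelial sum 55 and 55, against 52 and 54.

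Few ribosome biogenesis genes passed the test between the groups, and most changes, passed or not, were below 0. Of the 41 measured genes, 2 were lower and 0 higher at a limma adjusted p under 0.05, against 2.99% of all 22180 genes lower and 3.37% higher. These 2 were Polr1b, a catalytic subunit of Pol I, and Gnl3, the nucleolar GTPase nucleostemin. The median log2 change of the 41 was -0.07, against 0.01 over all genes, and 27 of the 41 changes were below 0 (65.9%, against 48.3% of all genes). At an unadjusted p under 0.05, 12 of the 41 were lower and 0 higher, against 10.2% of all genes lower and 11.3% higher. Both shLDHA arrays lay below both scramble arrays for 23 of the 41 genes (24.0% of all genes did so), and above both for 7 (26.2% of all genes). All 41 lay at or above the median level, whereas the shares of all genes include dimmer genes. Shares by unadjusted p and by array order were not counted for genes at that level alone.

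**Figure D1:**
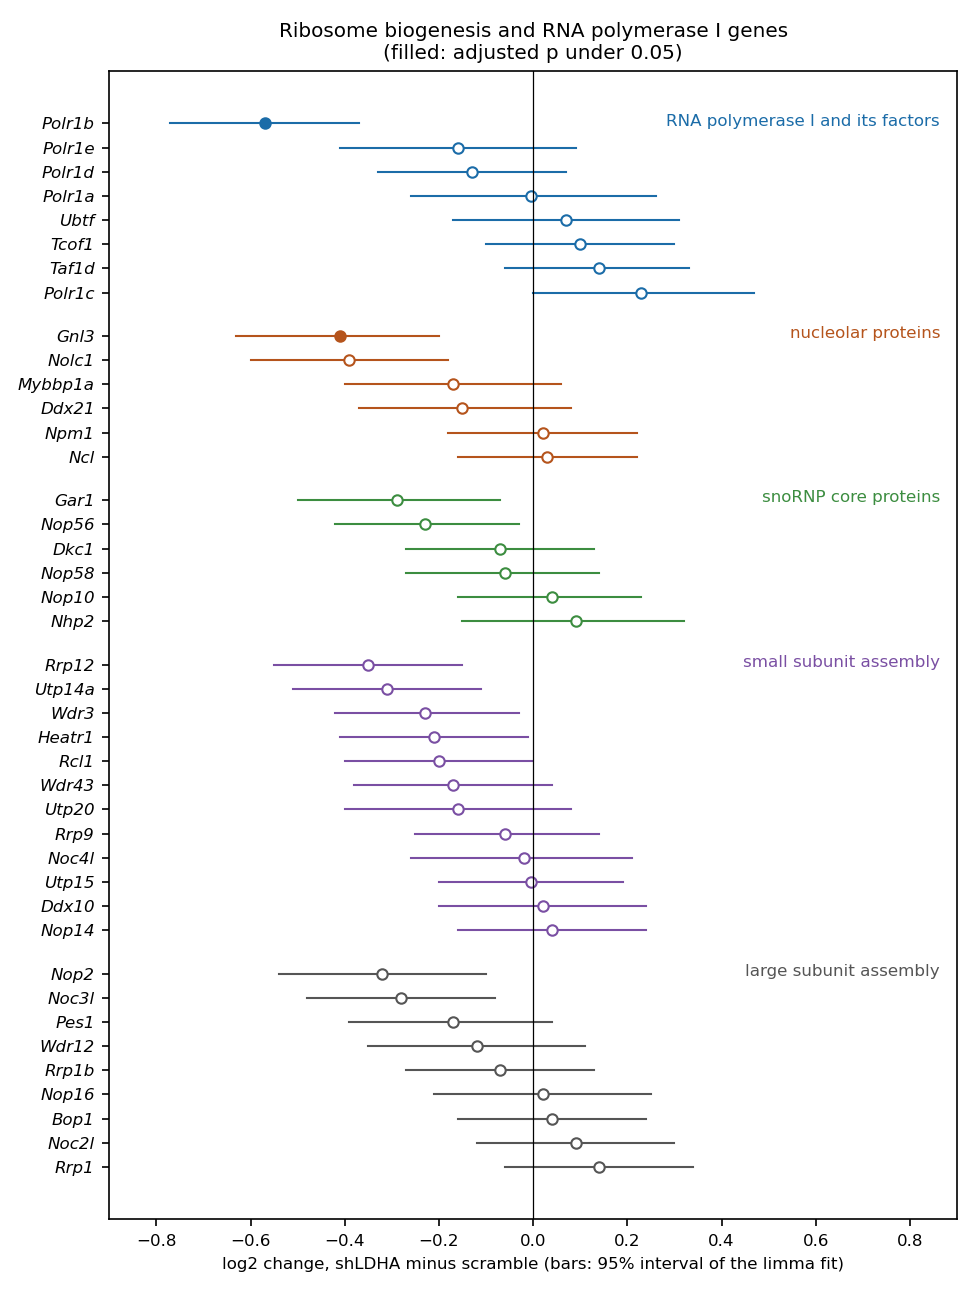
Log2 change between shLDHA and scramble cells (x axis, log2 units) for the 41 measured genes, grouped by role and ordered by change; points are the estimates from 4 arrays, bars are 95% intervals of the limma fit, and filled points have an adjusted p under 0.05. Polr1b (-0.57) and Gnl3 (-0.41) are the filled points, and 12 intervals lie wholly below 0 and 0 wholly above.

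The greatest change was that of Polr1b, 1.49-fold lower in shLDHA. The median size of the log2 change, whatever its sign, was 0.14 over the 41 and 0.11 over all genes. The 95% interval stayed within 0.5 of 0 on the log2 scale (1.41-fold) for 34 of the 41, and for the other 7 it reached -0.50 or below. The number of calls depended on how the spread of a gene was modelled. With a variance trend over signal level in limma's eBayes step, 10 of the 41 were lower and 0 higher, against 6.23% of all genes lower and 6.42% higher under that setting. Among genes at or above the median level, which all 41 were, 8 were lower and 0 higher. The shares of all genes tested there were 12.3% and 13.3%. Shares under the trend, here and below, include dimmer genes and were not counted at that level alone. Fits without any single array called fewer of the 41, and also fewer of all genes.

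In the Pol I machinery, 1 of 8 measured genes passed, against 2.99% of all genes lower and 3.37% higher. At an unadjusted limma p under 0.05, 1 was lower and 0 higher, against 10.2% and 11.3% of all genes. The same counts passed with the variance trend, against 6.23% and 6.42% of all genes. Polr1b, whose protein forms the active centre together with the product of Polr1a, read 6.69 and 6.63 on the shLDHA arrays, against 7.20 and 7.27 on the scramble arrays. The groups did not overlap, and the gap was several times the distance between arrays of a group. The log2 change was -0.57 (SE 0.08, 95% interval -0.77 to -0.37, limma adjusted p = 0.0159). The adjusted p was 0.0674 without scramble replicate 2, 0.0659 without shLDHA replicate 1 and 0.0842 without shLDHA replicate 2.

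The other 7 Pol I genes did not pass, and whether their changes differ from that of Polr1b was not tested. Polr1a, the gene of the largest subunit, read 8.11 and 7.90 in shLDHA, against 7.93 and 8.09 in scramble, with overlapping groups and a 95% interval of the log2 change of -0.26 to 0.26. Polr1c, whose protein is shared with RNA polymerase III, read 8.21 and 8.35 in shLDHA, against 8.12 and 7.98 in scramble. Both shLDHA arrays were the higher ones there, and the log2 change of 0.23 did not pass (limma adjusted p = 0.233). Polr1d, the partner of Polr1c in both enzymes, read 7.53 and 7.50 in shLDHA, against 7.67 and 7.62 in scramble (log2 change -0.13, adjusted p = 0.446). Polr1e, a subunit of the mammalian PAF53/PAF49 heterodimer, read 5.52 and 5.75 in shLDHA, against 5.78 and 5.82 in scramble (-0.16, adjusted p = 0.448). Both shLDHA arrays were the lower ones for these 2 genes. Ubtf, the gene of the activator UBF, changed by 0.07 (adjusted p = 0.766), and Tcof1, the gene of the Pol I cofactor treacle, by 0.10 (adjusted p = 0.59).

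Taf1d, the gene of an SL1 subunit that also carries snoRNAs in its introns, had 11 probes that disagreed. The brightest, used for the counts above, read 11.68 and 11.66 in shLDHA, against 11.55 and 11.51 in scramble (log2 change 0.14, adjusted p = 0.41). Over the 11 probes the log2 change ran from -0.60 to 0.14, with 5 below 0 and 6 above. With every probe tested on its own, probe 17514822 was lower in shLDHA, at 7.51 and 7.75, against 8.16 and 8.30 in scramble (log2 change -0.60, limma adjusted p = 0.0308). The mean of the 11 probes changed by -0.11 (adjusted p = 0.513). Probes 17288059 and 17514836 hold identical values on all 4 arrays and are not independent. Which of the 11 probes read the mRNA of Taf1d, rather than the snoRNAs in its introns, is not known here. The direction of Taf1d is therefore uncertain. The other genes with several probes agreed in sign: Nop56 (3 probes, -0.24 to -0.09), Ddx21 (2 probes, -0.44 and -0.15) and Npm1 (2 probes, 0.02 and 0.09).

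**Figure D2:**
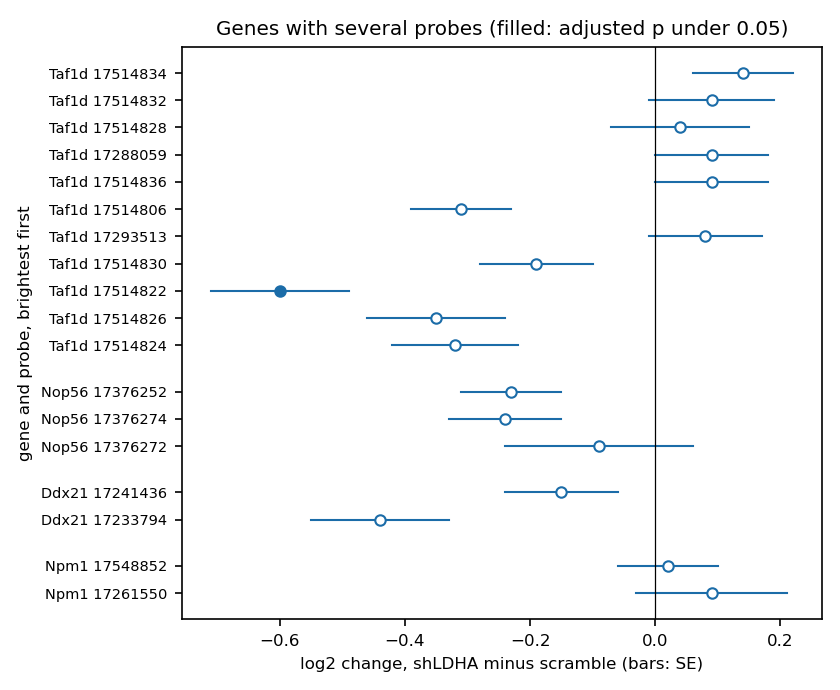
Log2 change between shLDHA and scramble cells (x axis, log2 units) for each probe of the 4 genes with more than 1 probe (y axis, gene and probe number, brightest first); points are estimates with every probe tested, bars are SEs, and the filled point has an adjusted p under 0.05. The 11 Taf1d probes spread from -0.60 to 0.14, while the probes of each of the other 3 genes lie on 1 side of 0.

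Of 6 nucleolar proteins, Gnl3 alone passed, where 2.99% of all genes were lower and 3.37% higher. At an unadjusted limma p under 0.05, 2 were lower and 0 higher, against 10.2% and 11.3% of all genes. The same counts passed with the variance trend, against 6.23% and 6.42% of all genes. The protein of Gnl3 shuttles between nucleolus and nucleoplasm and is abundant in proliferating and stem cells. Gnl3 read 9.95 and 9.87 on the shLDHA arrays, against 10.38 and 10.28 on the scramble arrays, without overlap. The log2 change was -0.41 (SE 0.09, 95% interval -0.63 to -0.20, limma adjusted p = 0.0453), and the call was close to the threshold. It passed in 7 of the 13 alternative settings. Among those that ended the call were the fits without any single array, at adjusted p from 0.107 to 0.189, and the fit in which quantile normalization was applied again (0.0611).

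Nolc1, the gene of the snoRNP chaperone Nopp140, lay just outside the threshold. It read 8.81 and 8.91 in shLDHA, against 9.27 and 9.23 in scramble, again without overlap (log2 change -0.39, SE 0.09, limma adjusted p = 0.0514). Ncl and Npm1, the genes of the abundant nucleolar proteins nucleolin and nucleophosmin, did not move detectably. Ncl read 11.43 and 11.42 in shLDHA, against 11.39 and 11.40 in scramble, with a 95% interval of the change of -0.16 to 0.22. For Npm1 the interval was -0.18 to 0.22. The RNA helicase gene Ddx21 (-0.15, limma adjusted p = 0.449) and Mybbp1a (-0.17, adjusted p = 0.371), whose protein binds MYB, did not pass.

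**Figure D3:**
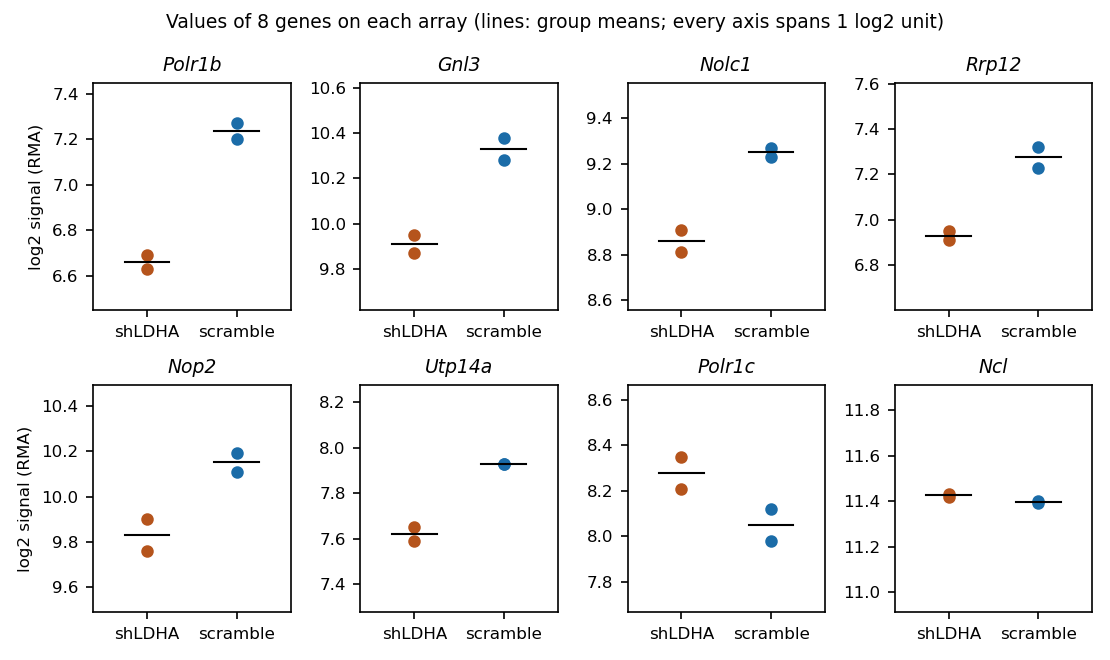
Log2 signal (y axis, RMA values, every axis spanning 1 log2 unit) of 8 genes on each array, shLDHA left and scramble right; points are arrays and lines group means. In the first 6 panels, which hold the genes with the smallest p-values, both shLDHA arrays lie below both scramble arrays, Polr1c has them above, and the group means of Ncl differ by 0.03.

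None of the 6 measured snoRNP core genes passed by limma, and 4 of the 6 changes were below 0 (48.3% of all genes were). Lower at an unadjusted p under 0.05 were 2, with 0 higher, against 10.2% and 11.3% of all genes. The same counts passed with the variance trend, against 6.23% and 6.42% of all genes. In box H/ACA particles, which guide pseudouridylation, Gar1 read 8.62 and 8.69 in shLDHA, against 9.01 and 8.87 in scramble (log2 change -0.29, limma adjusted p = 0.13). Dkc1, the gene of the pseudouridine synthase dyskerin, read 9.23 and 9.31 in shLDHA, against 9.35 and 9.33 in scramble (-0.07, adjusted p = 0.727). Nop10 changed by 0.04 (adjusted p = 0.853) and Nhp2 by 0.09 (adjusted p = 0.685). The groups did not overlap for Gar1, Dkc1 and Nop10 and did for Nhp2, and no difference between these genes was tested. In box C/D particles, which guide methylation, Nop56 read 10.51 and 10.57 in shLDHA, against 10.77 and 10.76 in scramble (log2 change -0.23, limma adjusted p = 0.176). The 2 groups of Nop56 did not overlap, whereas those of its paralogue Nop58 did (-0.06, adjusted p = 0.757).

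None of the 12 small subunit assembly genes passed. Of the 12 changes, 10 were below 0 (48.3% of all genes were), with a median of -0.16. At an unadjusted p under 0.05, 5 were lower and 0 higher, against 10.2% and 11.3% of all genes. With the variance trend 3 were lower and 0 higher, against 6.23% and 6.42% of all genes, and the role groups were not tested as lists. Rrp12, whose yeast counterpart serves export of both subunits, read 6.95 and 6.91 in shLDHA, against 7.23 and 7.32 in scramble (log2 change -0.35, limma adjusted p = 0.0669). Utp14a, a component of the small subunit processome, read 7.59 and 7.65 in shLDHA, against 7.93 and 7.93 in scramble (-0.31, adjusted p = 0.0845). In both, the gap between groups was wider than that between arrays of a group. The processome genes Wdr3 (-0.23, limma adjusted p = 0.178) and Heatr1 (-0.21, adjusted p = 0.212) and the gene of the processing factor Rcl1 (-0.20, adjusted p = 0.229) made up the 5.

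The remaining 7 small subunit genes were nearer 0. The processome genes Wdr43 and Utp20 changed by -0.17 and -0.16. Rrp9, whose protein binds the U3 snoRNA, changed by -0.06 and Noc4l by -0.02. For Utp15 the 95% interval of the change was -0.20 to 0.19, for the helicase gene Ddx10 it was -0.20 to 0.24 and for Nop14 it was -0.16 to 0.24.

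None of the 9 large subunit assembly genes passed. Of the 9 changes, 5 were below 0 (48.3% of all genes were), with a median of -0.07. Of the 9, 2 were lower and 0 higher at an unadjusted p under 0.05, against 10.2% and 11.3% of all genes. The same counts passed with the variance trend, against 6.23% and 6.42% of all genes. Nop2, the gene of a methyltransferase of large subunit ribosomal RNA, read 9.76 and 9.90 in shLDHA, against 10.11 and 10.19 in scramble (log2 change -0.32, limma adjusted p = 0.107). Noc3l, which acts with Noc2l in large subunit assembly in yeast, read 8.73 and 8.66 in shLDHA, against 8.96 and 8.98 in scramble (-0.28, adjusted p = 0.113). The groups were apart for both. Noc2l changed by 0.09 (limma adjusted p = 0.653).

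The PeBoW complex, made of the products of Pes1, Bop1 and Wdr12 and needed to process the large subunit RNA, held no gene that passed. Pes1 changed by -0.17 (limma adjusted p = 0.332), Wdr12 by -0.12 (adjusted p = 0.555) and Bop1 by 0.04 (adjusted p = 0.855). Rrp1b changed by -0.07, Nop16 by 0.02 and Rrp1 by 0.14, none of which passed.

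How often a member passed over the alternative settings varied. Polr1b passed in 10 of 13 alternative settings, Gnl3 in 7, Nolc1 in 4 and Rrp12 in 3. Nop2, Utp14a, Noc3l and Gar1 passed in 2 each, with the filter at the median level and with the variance trend, and Nop56 and Wdr3 passed with the trend alone. No member was higher at an adjusted p under 0.05 in any of the 13. All 12 members at an unadjusted p under 0.05 were below 0 in each of the 13. That was largely fixed beforehand, since several settings keep the log2 change of the reported fit. For these 12, both shLDHA arrays lay below both scramble arrays, so leaving out an array could not change the sign.

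**Figure D4:**
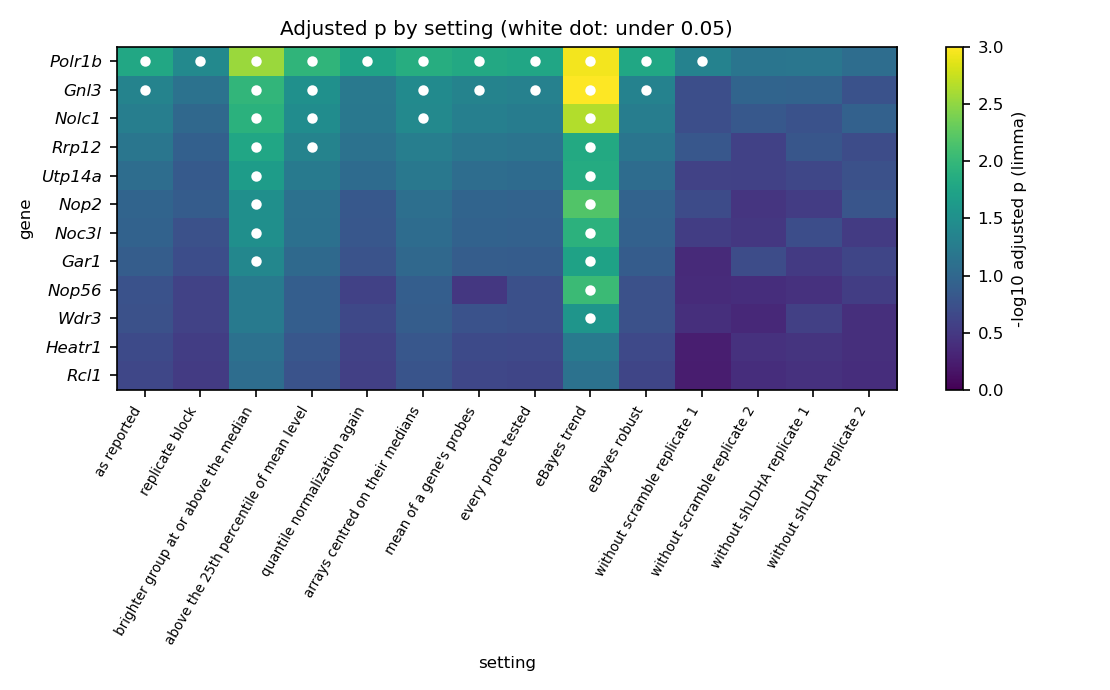
Limma adjusted p (colour, as -log10) of the 12 genes with the smallest p-values (rows) under the reported fit and 13 alternative settings (columns); white dots mark an adjusted p under 0.05. The dots thin out from Polr1b downward, 10 genes have one with the variance trend, and of the 4 columns that leave out an array only the first, without scramble replicate 1, holds a dot, for Polr1b.

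Other genes of the same pathway were counted in the same way. In 5 lists of further Pol I, subunit assembly, snoRNP assembly and ribosomal RNA processing genes, 6 of 134 measured genes fell and 0 rose. Of all genes, 2.99% fell and 3.37% rose. The median log2 change of the 134 was -0.04, and 83 changes were below 0 (48.3% of all genes were). At an unadjusted p under 0.05, 30 were lower and 13 higher, against 10.2% of all genes lower and 11.3% higher. With the variance trend 26 were lower and 7 higher, against 6.23% and 6.42% of all genes. The lists differed among themselves in these counts, with 12 lower and 2 higher at an unadjusted p under 0.05 among 46 large subunit genes and 5 lower and 5 higher among 25 nuclease and exosome genes. No list was tested, and no difference between lists.

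For the small subunit, 2 of 41 further genes fell. Bysl, the gene of the 40S assembly factor bystin, read 7.01 and 7.13 in shLDHA, against 7.64 and 7.79 in scramble, without overlap (log2 change -0.65, SE 0.10, limma adjusted p = 0.0159). Mphosph10, whose protein belongs to the U3 snoRNP, changed by -0.38 (adjusted p = 0.0495) and passed in 5 of the 13 alternative settings. For the large subunit, 3 of 46 fell. Eif6, the gene of an anti-association factor that keeps the 60S particle from joining too early, read 9.17 and 9.16 in shLDHA, against 9.65 and 9.64 in scramble (-0.48, SE 0.08, limma adjusted p = 0.0231). Urb1, an early large subunit assembly factor in yeast, changed by -0.60 (SE 0.11, adjusted p = 0.03) and Nle1, which acts with the remodelling enzyme of the pre-60S particle, by -0.40 (SE 0.08, adjusted p = 0.0409). Bysl kept its call without scramble replicate 1 (adjusted p = 0.0291) and lost it without scramble replicate 2 (0.0623), shLDHA replicate 1 (0.0822) or shLDHA replicate 2 (0.0603). The other 4 lost it whichever array was left out, with adjusted p from 0.0524 to 0.18. Eif6, Urb1 and Nle1 passed in 8 each of the 13 alternative settings and Bysl in 10.

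Isg20l2, a nucleolar exonuclease gene, was the 1 of 25 processing nuclease and exosome genes to fall, with 7.88 and 7.99 in shLDHA, against 8.49 and 8.41 in scramble (log2 change -0.51, limma adjusted p = 0.0257). It passed in 8 of the 13 alternative settings, and its adjusted p was 0.0682 to 0.111 when any single array was left out. The 13 further Pol I genes held 0 calls by limma. At an unadjusted p under 0.05, 1 of them was lower and 4 were higher (10.2% and 11.3% of all genes). With the variance trend 0 of the 13 were lower and 2 higher (6.23% and 6.42% of all genes). Among them Rrn3, whose protein makes Pol I competent to initiate, changed by -0.16 (adjusted p = 0.317) and Twistnb, a Pol I subunit gene, by 0.24 (adjusted p = 0.148). The 9 further snoRNP assembly genes also held 0 calls. At an unadjusted p under 0.05, 3 were lower and 0 higher, and 3 were lower with the trend, beside the same shares of all genes.

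**Figure D5:**
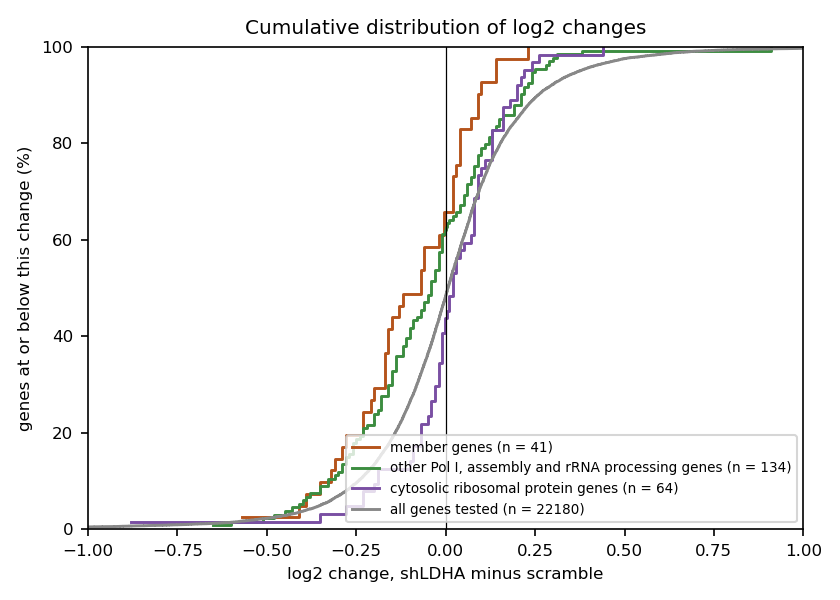
Cumulative share of genes (y axis, percent) at or below a given log2 change between shLDHA and scramble cells (x axis, log2 units, cropped at -1 and 1) for the 41 measured members, 134 further genes of the pathway, 64 cytosolic ribosomal protein genes and all 22180 genes. The curve of the members lies left of that of all genes through most of its range, with medians of -0.07 and 0.01.

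Myc, whose product drives this pathway, read 10.98 and 11.07 in shLDHA, against 11.27 and 11.26 in scramble (log2 change -0.24, limma adjusted p = 0.172). The groups did not overlap, but Myc passed in 1 of the 13 alternative settings. The proliferation marker Mki67 was higher in shLDHA, averaging 9.62 ± 0.17 against 9.01 ± 0.02 in scramble (SD, n = 2 arrays each), opposite in direction to Polr1b and Gnl3. Its log2 change was 0.61 (limma adjusted p = 0.0236), with an adjusted p of 0.0669 without scramble replicate 1, 0.0752 without scramble replicate 2 and 0.0895 without shLDHA replicate 1. The part of either in the results above was not tested.

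Promoter sequence is a property of these genes that is not read from their array values. RefSeq (GRCm38.p6) gave 46 windows, each of 250 bases before and 50 after a start site, for 37 of the 41 genes. Of the 37, 4 had several windows, which can overlap and share a site, so windows are not independent. Each of 4 motifs was searched on both strands. The E-box CACGTG, the site that MYC and MAX bind, was in 5 of the 46 windows (10.9%), against 7.15% of all 32851 windows in the table and 8.07% of the 20611 windows of tested genes. The 5 genes were Mybbp1a, Nop2, Pes1, Utp20 and Wdr43. Their log2 changes ran from -0.32 (Nop2) to -0.16 (Utp20), and none of the 5 passed.

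The motif CCGGAAG, the core that ETS family factors bind, was in 12 of the 46 windows (26.1%), against 8.86% of all windows and 11.4% of those of tested genes. It occurred in 11 genes, where Nolc1, Nop2, Gar1, Noc3l, Wdr3, Heatr1 and Polr1e had changes from -0.39 to -0.16, and Polr1c, Nhp2, Noc2l and Ddx10 had changes from 0.02 to 0.23. The median GC content was 59.5% in the windows of these genes, against 56.7% in those of all tested genes, and its part in the motif counts was not tested. CTCGCGAG was in 0 of the 46 windows (0.919% of all) and GCGCATGC in 1 (2.71% of all), that of Ubtf.

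The 250 bases before the start site are shown for the 2 genes that passed, Polr1b and Gnl3, in which none of the 4 motifs occurred, and for Nolc1 and Nop2, which hold the motifs named above. Capitals mark CCGGAAG in Nolc1 and, in Nop2, CACGTG 60 bases and CCGGAAG 38 bases before the start site. All are written 5′ to 3′ on the strand of the gene, from RefSeq GRCm38.p6, and a match is a string of letters and not evidence of binding.
Polr1b, chr2:129100746-129100995, plus strand: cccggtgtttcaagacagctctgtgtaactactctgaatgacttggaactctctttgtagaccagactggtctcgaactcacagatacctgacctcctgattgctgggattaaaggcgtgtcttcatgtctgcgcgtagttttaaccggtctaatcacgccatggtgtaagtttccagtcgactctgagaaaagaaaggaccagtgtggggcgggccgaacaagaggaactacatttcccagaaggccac
Gnl3, chr14:31019132-31019381, minus strand: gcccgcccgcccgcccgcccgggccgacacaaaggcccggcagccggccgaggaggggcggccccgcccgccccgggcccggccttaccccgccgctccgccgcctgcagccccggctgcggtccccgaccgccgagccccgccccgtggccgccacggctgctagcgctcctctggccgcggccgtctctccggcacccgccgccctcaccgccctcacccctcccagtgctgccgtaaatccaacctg
Nolc1, chr19:46075597-46075846, plus strand: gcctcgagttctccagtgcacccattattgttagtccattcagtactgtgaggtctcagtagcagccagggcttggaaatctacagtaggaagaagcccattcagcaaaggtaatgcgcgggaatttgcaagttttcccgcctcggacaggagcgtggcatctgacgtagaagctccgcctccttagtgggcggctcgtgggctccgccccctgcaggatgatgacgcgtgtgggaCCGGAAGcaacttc
Nop2, chr6:125131633-125131882, plus strand: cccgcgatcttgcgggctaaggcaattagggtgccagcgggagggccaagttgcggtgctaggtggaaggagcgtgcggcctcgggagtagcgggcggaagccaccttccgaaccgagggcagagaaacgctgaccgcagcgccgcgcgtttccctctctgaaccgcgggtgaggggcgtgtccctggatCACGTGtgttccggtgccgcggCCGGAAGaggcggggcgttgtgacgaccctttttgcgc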

How the data were processed

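Total RNA of 4 cultured samples, 2 shLDHA and 2 scramble, was measured on Affymetrix whole-transcript arrays. The deposited values are on a log2 scale, and the submitters' processing notes name RMA and R 3.4.0. The probe annotation behind RMA was not given in the sources used here. Values ran from 1.23 to 12.91, and array medians from 3.87 to 3.90. Depth in reads does not apply, and the number of arrays limits the precision.

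Of 41345 probes, 23521 had exactly 1 gene symbol in the platform table, 1814 several and 16010 none. Only the first kind was used, of which 23328 were found in a RefSeq table by gene identifier, which changed 0 symbols. For the 1082 genes with several probes the brightest over the 4 arrays was kept, giving 22180 genes, with no filter. Sample titles gave groups and replicate numbers. Differences were fitted by limma 3.58.1 under R 4.3.3 (lmFit, eBayes, two-sided, Benjamini-Hochberg over all genes, called under 0.05), with 2 residual and 4.52 prior degrees of freedom. All adjusted p-values of genes are from limma.

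The members and gene lists were chosen with earlier results of these data known, so counts over them are descriptions. The rule for named genes took all members, Ldha, Myc, Mki67, the markers, and up to 4 called genes with the smallest p from each further list; Rrn3, Twistnb and the uncalled genes named from the 8 further lists were chosen after their values were seen. The 13 alternatives were the replicate number as a block, filters at the median level and the 25th percentile, repeated quantile normalization, median centring, the mean of probes, every probe, eBayes with trend or robust, and leaving out each array. Simulated arrays of 22180 genes had 200 changed, over 10 runs. The fit recovered 4.4% of log2 changes of 0.5 and 89.5% of those of 1, with 5.92% of calls false. More genes were called in the real data than were changed there, so those shares need not hold for the real data. Figures were drawn with matplotlib 3.10.9.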

Additional observations from a re-analysis of the deposited data

How the results depend on the processing

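The median log2 change of the members stayed between -0.11 and -0.06 over the 13 alternatives, several of which keep the reported log2 changes. In each, 0 members were called higher. The count of members lower in shLDHA, 2 as reported, was 1 with the replicate block, 8 with the filter at the median level, 4 with the filter at the 25th percentile, 1 with repeated quantile normalization and 10 with the variance trend, and ran from 0 to 1 when an array was left out. The filters test fewer genes and refit the shared variance, and the part of each in the counts was not tested. An array left out leaves 1 residual degree of freedom fewer. Over all genes, 663 lower and 747 higher as reported became 405 and 433 with the block, 1359 and 1477 with the filter at the median level, and 1381 and 1425 with the trend, and 220 to 316 lower and 150 to 322 higher when an array was left out. With the filter at the 25th percentile, 846 of the genes it tested were lower and 941 higher. Repeated quantile normalization gave 631 lower and 707 higher. The cause of the difference with the trend was not tested.

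The labels do not say that a replicate number marks a shared culture or day. The deviations of same-numbered arrays correlated at -0.03 over all genes, so the block was not used for the reported values. With the block Polr1b had an adjusted p of 0.0384. Over the threshold with it were Gnl3 (0.0748), Ldha (0.0734), Eif6 (0.054), Urb1 (0.0602), Nle1 (0.0826), Mphosph10 (0.0915), Isg20l2 (0.0571) and Polr3d (0.0595).

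Several genes near 0, none of them past the threshold, changed sign. With arrays centred on their medians Ncl changed by -0.0033, Npm1 by -0.01, Nop16 by -0.01 and Ddx10 by -0.01. With repeated quantile normalization Polr1a changed by 0.00087 and Utp15 by 0.02, and the mean of the Taf1d probes changed by -0.11. Over the fits without 1 array, Npm1 ran from -0.02 to 0.06, Nop16 from -0.07 to 0.11, Polr1a from -0.11 to 0.10, Utp15 from -0.02 to 0.02, Ddx10 from -0.06 to 0.10, Nhp2 from -0.01 to 0.19, Ubtf from -0.04 to 0.17 and Noc4l from -0.10 to 0.05. In the simulated data the fit recovered 4.4% of log2 changes of 0.5, but only 200 genes were changed there. Here 663 genes were called lower and 747 higher, and with more calls the Benjamini-Hochberg threshold is less strict. That share therefore does not tell how many changes of 0.5 or less were missed here. Changes of that size did pass, such as -0.41 for Gnl3 and -0.38 for Mphosph10.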

Other observations

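Ribosomal protein genes, the products that this machinery assembles, showed no calls. The 64 measured genes of cytosolic ribosomal proteins were taken by the pattern of their symbols, so variant genes such as Rpl10l and Rpl3l are among them. Of the 64, 0 were lower and 0 higher at a limma adjusted p under 0.05. Of all genes, 2.99% were lower and 3.37% higher. The median log2 change of the 64 was 0.02. At an unadjusted p under 0.05, 4 were lower and 2 higher, against 10.2% and 11.3% of all genes. With the variance trend 2 were lower and 2 higher, against 6.23% and 6.42% of all genes. The probes of some, among them Rpl17, Rpl27a and Rps15, averaged in both groups below 4.19, the olfactory receptor level given above. Many of these genes have processed pseudogenes, so the probes of some may also bind other transcripts. RNA polymerase III shares Polr1c and Polr1d with Pol I, and 1 of its 10 further measured subunit genes, Polr3d, fell. Polr3d read 6.75 and 6.79 in shLDHA, against 7.24 and 7.21 in scramble (log2 change -0.46, SE 0.08, limma adjusted p = 0.0264), and it passed in 8 of the 13 alternative settings, with an adjusted p of 0.0959 to 0.113 when any single array was left out.

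Noncoding host genes, which carry snoRNAs in their introns, moved both ways. Of 12 measured, 2 fell and 1 rose, against 2.99% and 3.37% of all genes. Snhg15 read 6.70 and 6.95 in shLDHA, against 7.62 and 7.55 in scramble (log2 change -0.76, limma adjusted p = 0.0144). Snhg12 read 6.85 and 6.75 in shLDHA, against 7.42 and 7.38 in scramble (-0.60, adjusted p = 0.0147). Snhg3 read 7.78 and 7.96 in shLDHA, against 7.31 and 7.30 in scramble (0.56, adjusted p = 0.0226). The groups did not overlap for any of the 3. Snhg15 lost the call without shLDHA replicate 1 (adjusted p = 0.0597). Snhg12 lost it without scramble replicate 1 (0.0575), shLDHA replicate 1 (0.0539) or shLDHA replicate 2 (0.0801), and Snhg3 whichever array was left out (0.0536 to 0.101). Host transcript levels need not follow those of the snoRNAs they carry, which were not analysed here.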
